A study of Rattus norvegicus with 40 samples.

Results

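The mitochondrial ribosome and protein import genes were taken as every gene on the array whose annotated symbol starts with Mrpl, Mrps, Timm or Tomm. The rule found 92 genes on 147 probes, out of 14871 genes on the 23322 probes that name a single gene. They comprise 70 mitochondrial ribosome genes on 112 probes, of which 43 are Mrpl (large subunit) and 27 are Mrps (small subunit) symbols, and 22 import genes on 35 probes, of which 16 are Timm and 6 are Tomm symbols. Of these, 67 ribosome and 20 import genes could be tested, because at least 1 of their probes had a value in 4 or more of the 6 animals of every group. Mrpl39, Mrps2, Mrps7, Timm29 and Timm8a2 did not meet that minimum. Among the tested import genes, Timmdc1, an assembly factor of respiratory complex I, and Tomm34, a cytosolic cochaperone, carry the name of a translocase without being one of its subunits.

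Mitochondria keep their own ribosome, which translates the few proteins that the mitochondrial genome encodes, all of them subunits of the respiratory chain and ATP synthase. Every protein of that ribosome is encoded in the nucleus, made in the cytosol and imported. Precursors cross the outer membrane through the TOM channel, and from there the TIM23 complex takes proteins with a cleavable presequence into the matrix or inner membrane, while small Tim chaperones guide membrane carriers to the TIM22 complex. Heart muscle depends on this machinery because its contraction runs on oxidative phosphorylation.

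The study took the right ventricle from 24 rats, all male Sprague-Dawley, in 4 groups of 6. SuHx rats with carvedilol received 20 mg/kg SU5416, a blocker of the vascular endothelial growth factor receptor, spent 4 weeks at 10% oxygen, and then took 15 mg/kg carvedilol, a blocker of adrenergic receptors, daily for 4 weeks in room air. SuHx rats received the same 20 mg/kg of SU5416 and the same 4 weeks of hypoxia, followed by 2 weeks at sea level. Hypoxia rats had 4 weeks at 10% oxygen and no SU5416, and Normal rats were untreated. The ages of the animals are not given, and none of the 4 groups is given as treated with the vehicle of carvedilol. The SuHx group with carvedilol also spent longer in room air than the SuHx group, so that the drug and the added time cannot be told apart. The labels number its animals between 237 and 604, Normal animals 1 to 6 and SuHx animals 13 to 18. Hypoxia animals are 19 to 22, 295 and 296. What the numbers stand for is not given, and a difference tied to them cannot be told apart from that of the carvedilol group. Below, animals are numbered 1 to 6 within each group. RNA came from ventricle tissue as a whole, with all of its cell types.

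Each array compared Cy5-labelled RNA of an animal with Cy3-labelled reference RNA pooled from 14 rat cell lines, so a value is the log2 of sample over reference. It does not allow one gene's abundance to be set against another's. The 40 arrays, with 8, 12, 12 and 8 for SuHx with carvedilol, SuHx, Hypoxia and Normal rats, gave means of 28432, 28142, 26035 and 33254 probes with a value per animal in the same order. The SD of an animal's ratios averaged 1.98, 1.88, 2.06 and 1.70. Cardiomyocyte markers stood well above the reference RNA in every animal, between 3.86 and 6.42 log2 units for the mean of the 12 listed genes. Changes of all 9775 tested genes were not centred on 0: their median was -0.32 for SuHx with carvedilol against Normal, -0.20 for SuHx with carvedilol against SuHx, -0.12 for SuHx against Normal, 0.26 for SuHx against Hypoxia and -0.39 for Hypoxia against Normal. Centring the animals on the median of all genes moved these medians to values between -0.12 and 0.04, so each member's change below is best read beside the median of its comparison. Groups were compared with limma over all tested genes, with p-values adjusted over all of them by Benjamini-Hochberg. A gene counted as called where the adjusted value was below 0.05, and errors given with a change are standard errors. The labels name separate animals, so the spread is that between the averages of separate rats, which also holds differences between arrays. The consensus correlation between arrays of the same animal was only 0.04. Arrays of the same rat were thus hardly more alike than arrays of different rats in a group. The number of arrays averaged differed between animals, and the errors do not separate variation between rats from that between arrays.

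Of the 67 ribosome genes, 29 were above the reference RNA in all animals with a value in the group of SuHx with carvedilol, 41 in SuHx, 40 in Hypoxia and 52 in Normal rats. Of the 20 import genes, the counts were 4, 10, 7 and 9 in the same order. The group means of all tested genes shifted as well, with medians of -0.36, -0.11, -0.44 and -0.02 in that order. The lowest of the 4 group means fell in SuHx rats with carvedilol for 48 ribosome genes (71.6%) and 13 import genes (65.0%), whereas this was so for 36.0% of all tested genes. The lowest mean fell in Hypoxia rats for 13 ribosome genes (19.4%) and 5 import genes, against 41.8% of all tested genes. These shares describe the order of the means and carry no test.

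**Figure D1:**
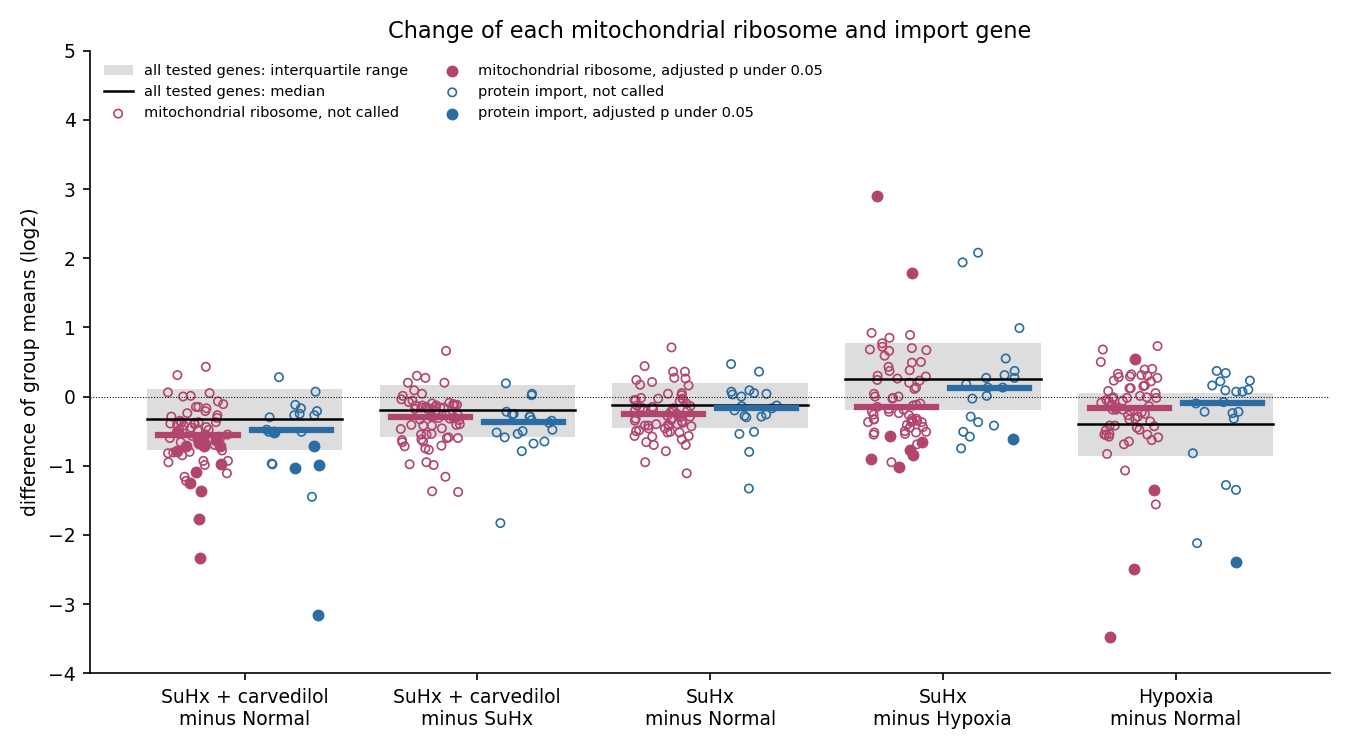
Difference of group means (log2, y axis) for each of the 67 ribosome and 20 import genes in the 5 comparisons (x axis). Filled points passed an adjusted p under 0.05, thick coloured bars are list medians, and the grey band and black line are the interquartile range and the median of all 9775 tested genes. In SuHx with carvedilol against Normal, 61 of 67 ribosome points lie below 0, as do 6770 of all 9775 tested genes.

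Nuclear genes for mitochondrial proteins are known targets of NRF1, of ETS-family factors such as GABP, and of YY1. Promoters of 5 members called in the comparisons that follow are shown, all of them with an ETS match, which many called members lack. RefSeq windows in build GRCr8, from 250 bases before to 50 bases after the transcript start, were matched for 72 of the 87 tested members, 2 of them with 2 windows each. The windows were searched on both strands for GCGCATGC (NRF1), CCGGAAG (ETS) and AAGATGGC (YY1), and in no window did matches of different motifs overlap. Capitals mark the matches, which read CTTCCGG where the ETS motif lies on the other strand, and in Mrps18b the NRF1 letters lie on both strands in overlap.

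Mrps18c, a small subunit protein, chr14:9122857-9123156, minus strand, ETS: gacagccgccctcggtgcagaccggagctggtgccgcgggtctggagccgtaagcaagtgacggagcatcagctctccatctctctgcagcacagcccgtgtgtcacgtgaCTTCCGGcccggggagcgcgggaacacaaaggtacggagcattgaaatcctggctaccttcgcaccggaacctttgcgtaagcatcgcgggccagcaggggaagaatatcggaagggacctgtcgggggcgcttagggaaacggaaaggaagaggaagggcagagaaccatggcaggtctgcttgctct
Mrpl30, a large subunit protein, chr9:47620977-47621276, plus strand, ETS: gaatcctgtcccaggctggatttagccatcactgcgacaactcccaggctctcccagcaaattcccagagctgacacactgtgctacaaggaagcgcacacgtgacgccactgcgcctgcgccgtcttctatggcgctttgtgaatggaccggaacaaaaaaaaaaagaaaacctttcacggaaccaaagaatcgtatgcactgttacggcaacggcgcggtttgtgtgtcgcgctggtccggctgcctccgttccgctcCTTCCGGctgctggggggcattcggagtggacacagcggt
Mrps18a, another homologue of bacterial S18, chr9:22367331-22367630, minus strand, ETS and YY1: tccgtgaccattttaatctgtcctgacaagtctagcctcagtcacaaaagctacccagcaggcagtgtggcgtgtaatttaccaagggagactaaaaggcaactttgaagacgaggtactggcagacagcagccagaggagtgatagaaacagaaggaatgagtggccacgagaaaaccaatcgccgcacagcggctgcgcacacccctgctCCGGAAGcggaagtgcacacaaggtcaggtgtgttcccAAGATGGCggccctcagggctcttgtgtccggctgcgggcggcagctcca
Mrps18b, the remaining S18 homologue, chr20:2842756-2843055, plus strand, all 3 motifs: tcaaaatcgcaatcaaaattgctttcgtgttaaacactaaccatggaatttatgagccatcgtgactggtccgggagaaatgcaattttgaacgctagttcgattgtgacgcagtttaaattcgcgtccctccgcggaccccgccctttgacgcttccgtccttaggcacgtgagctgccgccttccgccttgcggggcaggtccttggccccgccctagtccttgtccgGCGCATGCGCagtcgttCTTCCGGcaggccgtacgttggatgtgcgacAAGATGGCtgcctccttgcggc
Timm10b, a subunit of the TIM22 complex, chr1:169392105-169392404, plus strand, ETS: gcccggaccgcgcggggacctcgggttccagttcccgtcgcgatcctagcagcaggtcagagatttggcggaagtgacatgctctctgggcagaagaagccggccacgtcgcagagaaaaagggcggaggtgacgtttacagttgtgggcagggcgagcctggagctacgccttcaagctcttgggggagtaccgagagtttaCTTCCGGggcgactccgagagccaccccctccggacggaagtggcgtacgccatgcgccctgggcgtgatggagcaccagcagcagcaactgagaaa

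The ETS motif stood in 19 of 55 ribosome windows (34.5%) and 8 of 19 import windows (42.1%), against 17.1% of the 8498 windows of tested genes and 8.7% of all 33469 windows. The YY1 motif stood in 13 ribosome windows (23.6%) and 1 import window (5.3%), against 5.2% of the windows of tested genes and 3.2% of all windows. In 11 of the 14 member windows with a YY1 match, a match began at or after the transcript start. The NRF1 motif stood in 5 ribosome windows (9.1%) and 1 import window (5.3%), against 4.9% and 2.5%. Of 18 windows of members lower in SuHx with carvedilol than in Normal ventricles, 8 held the ETS motif and 11 any of the 3 motifs. Members without any of these letters in the window included Mrpl14, Mrpl2, Mrpl51 and Mrps16, all of which are described below. The windows of Mrps11 and Mrpl46, which lie head to head on chromosome 1, shared 267 bases. Neither of that pair was called in any comparison.

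Chronic hypoxia alone was followed by few called members, and their direction varied with the scaling of the arrays. Against Normal ventricles, 3 ribosome genes were lower and 1 higher in Hypoxia ventricles, of 67, and 1 import gene was lower, of 20. Over all tested genes 12.3% were called, 11.5% lower and 0.880% higher. An unadjusted p under 0.05 was reached by 15 ribosome genes (9 lower, 6 higher) and 3 import genes (all lower), against 28.0% of all genes. The median change was -0.16 for the ribosome and -0.09 for import genes, both above the median of -0.39 of all genes, and turned to 0.14 and 0.21 after centring.

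Mrpl2, whose bacterial homologue lies next to the peptidyl transferase centre, had log2 ratios between -6.50 and -0.51 with a median of -2.71 in Hypoxia ventricles. In Normal ventricles they ran between 0.06 and 1.30 with a median of 0.54. The groups did not overlap, and the difference of -3.47 ± 0.59 (SE, n = 6 each), an 11.1-fold lower level, had a limma adjusted p of 0.000745. Groups failed to overlap in this direction for 6.33% of all genes. Mrpl2 kept its call under every alternative setting and every omission of an animal that was run, between -4.03 and -2.56.

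Mrps27, a pentatricopeptide-repeat protein of the small subunit, had ratios between -3.78 and 0.12 (median -2.20) in Hypoxia ventricles and between -0.62 and 1.02 (median 0.33) in Normal ventricles. It was 5.62-fold lower (limma adjusted p = 0.00755), with overlapping groups. Its probes differed in size: one fell by 3.22 (adjusted p = 0.0374), while the other differed by -1.09 (adjusted p = 0.329). Mrps18b was 2.56-fold lower, with a mean of -0.81 ± 0.97 in Hypoxia and 0.55 ± 0.38 in Normal ventricles (SD, n = 6 each; limma adjusted p = 0.0181). That call held in 9 of 13 alternative settings, and centring on the all-gene median and quantile normalisation were among those that ended it.

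Mrps18c moved the other way from its homologue. Its ratios ran between 1.41 and 2.30 (median 1.95) in Hypoxia ventricles and between 1.13 and 1.59 (median 1.31) in Normal ventricles. The difference of 0.54 ± 0.18 lay just under the threshold (limma, adjusted p = 0.05), and 10 of 12 omissions of an animal lost it, all but those of Hypoxia animal 4 and Normal animal 4.

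Among import genes, the call fell on Timmdc1, which is no import subunit. It averaged -1.46 ± 2.45 in Hypoxia ventricles and 0.93 ± 0.48 in Normal ventricles (SD, n = 6 each; limma adjusted p = 0.0352). Hypoxia animal 6 stood at -6.19, with the other 5 between -1.90 and 0.25. Omitting Hypoxia animal 5 or any of Normal animals 1, 2, 3, 5 and 6 ended the call, with an adjusted p of up to 0.0753. Without Hypoxia animal 6 it was still called, at -1.44. Tomm40, the channel protein of the TOM complex, differed by -1.28 (adjusted p = 0.0624, with 5 Hypoxia animals), and Timm44, which tethers the import motor to TIM23, by -1.35 (adjusted p = 0.16). The receptors Tomm20, Tomm22 and Tomm70 differed by -0.08, 0.07 and 0.10, with adjusted p-values between 0.842 and 0.885. Tomm34 averaged -2.51 ± 3.63 in Hypoxia ventricles (SD, n = 5) and -0.40 ± 0.69 in Normal ventricles (SD, n = 6), a difference of -2.12 without a call (limma adjusted p = 0.204). Among ribosome genes, the widest uncalled differences were those of Mrpl40 (-1.56, adjusted p = 0.0624) and Mrps5 (-1.07, adjusted p = 0.147).

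The direction of the ribosome calls in Hypoxia depended on the scaling. With animals centred on the all-gene median, 9 ribosome genes were higher and 2 lower in Hypoxia ventricles, and the list median was 0.14. The 9 were Mrpl14, Mrpl30, Mrpl42, Mrpl53, Mrps17, Mrps18c, Mrps21, Mrps24 and Mrps33, with changes between 0.58 and 1.03, and Mrpl2 and Mrps27 remained lower. The import gene Tomm7 was then also higher, by 0.64 (limma adjusted p = 0.0378). Quantile normalisation gave 11 higher and 2 lower, and scaling to equal spread gave 0 higher and 8 lower. In this comparison Ryr2 of the 12 cardiomyocyte, C1qc of the 6 macrophage and Slc4a1 of the 3 erythroid markers were called lower in Hypoxia. Of these lists 3, 2 and 1 markers changed above 0, in that order. The list medians were -0.15, -0.34 and -0.61, beside -0.39 for all genes. The part of these markers in the result was not tested. Of all 9775 genes, centring gave 261 higher and 400 lower, and quantile normalisation 530 higher and 484 lower. Equal spread gave 134 higher and 1507 lower. Over all genes, 7.1% of calls were higher as deposited, 39.5% after centring and 52.3% after quantile normalisation.

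**Figure D2:**
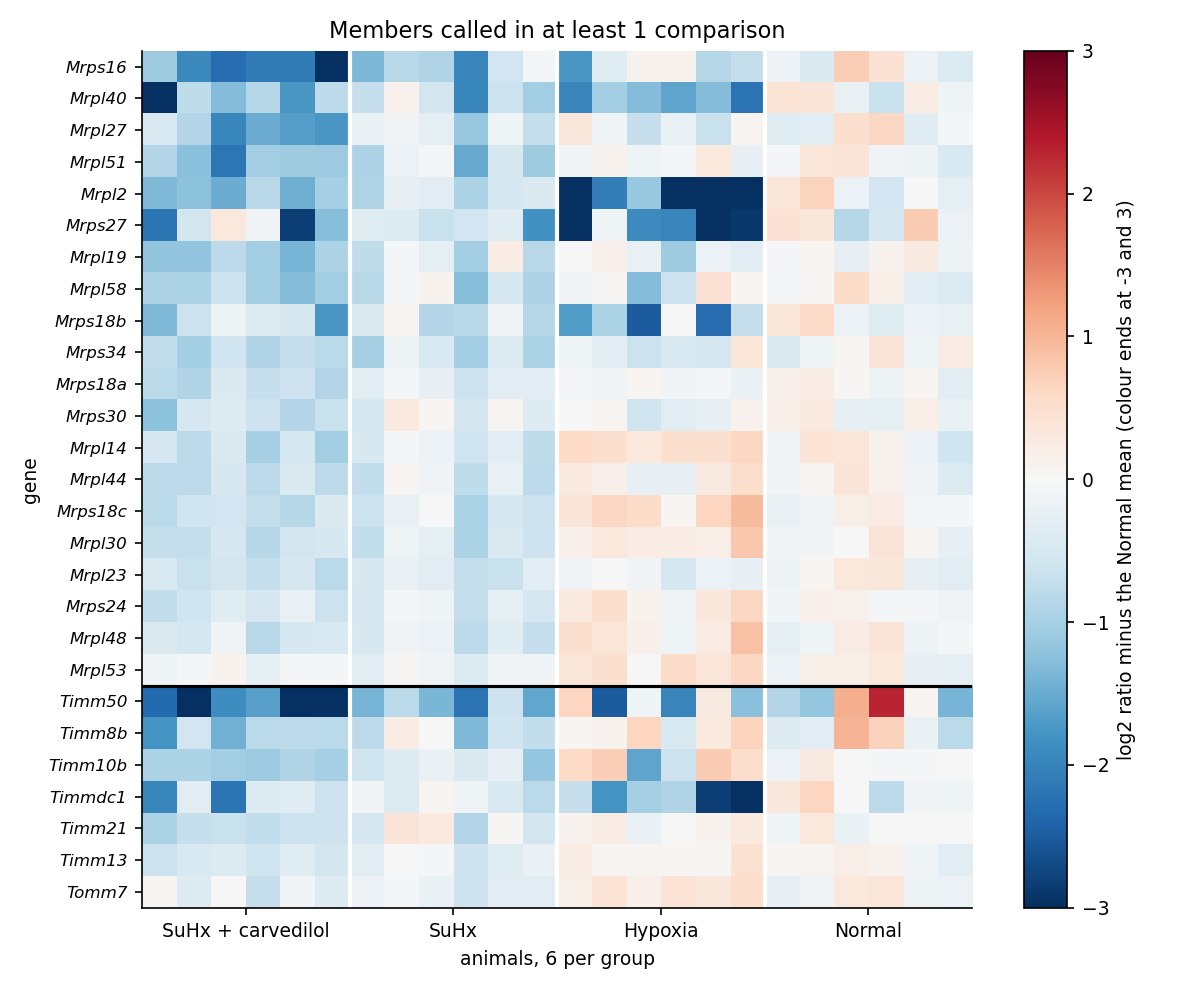
Log2 ratio minus the Normal mean for the 27 members called in at least 1 comparison (rows, ribosome genes above the line, import genes below it), in each animal (columns, 6 per group). Mrpl14, Mrpl30, Mrps18c, Mrps24, Mrpl48 and Mrpl53 are above the Normal mean in most Hypoxia animals and below it in most SuHx animals, and most rows are below it in SuHx animals with carvedilol.

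SuHx ventricles, measured after SU5416, hypoxia and the return to sea level, gave no called member against Normal ventricles. None of the 67 ribosome and none of the 20 import genes was called by limma, where 0.931% of all genes were. At an unadjusted p under 0.05 there were 13 ribosome genes, all lower in SuHx ventricles, and 0 import genes, against 12.5% of all genes. No ribosome gene separated the groups without overlap and 1 import gene did, Timm10b, lower in SuHx, where 4.20% of all genes did so in that direction. The median change was -0.25 for ribosome and -0.16 for import genes, beside -0.12 for all genes. Ribosome changes ran between -1.11 and 0.71 and import changes between -1.33 and 0.47, with median standard errors of 0.26 and 0.29. Differences of this size did not pass the test with these errors, which does not show that the levels were equal. The widest uncalled changes were those of Mrps15 (-1.11, adjusted p = 0.362), Mrps16 (-0.95, adjusted p = 0.374), Timm50 (-1.33, adjusted p = 0.443) and Timm44 (-0.80, adjusted p = 0.695, with 5 SuHx animals).

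Set against Hypoxia ventricles, SuHx ventricles had modestly lower levels of several ribosome genes. SuHx rats differed from Hypoxia rats in SU5416 and in the 2 weeks at sea level, which are not given for Hypoxia rats. The drug and the time at sea level cannot be told apart. Here 6 ribosome genes were lower and 2 higher in SuHx ventricles, and 1 import gene was lower. Over all genes 11.5% were called, 1.79% lower and 9.76% higher. An unadjusted p under 0.05 was reached by 19 ribosome genes (13 lower, 6 higher) and 5 import genes (3 lower, 2 higher), against 26.4% of all genes. The ribosome median was -0.15, while the median of all genes was 0.26 and that of import genes 0.13, which turned to -0.10 after centring and -0.11 after quantile normalisation. This comparison and that of Hypoxia with Normal use the same Hypoxia animals, so their changes are not independent of each other.

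Mrps18c stood between 0.41 and 1.37 (median 0.79) in SuHx ventricles and between 1.41 and 2.30 (median 1.95) in Hypoxia ventricles. It was 2.03-fold lower, by -1.02 ± 0.18 (SE, n = 6 each; limma adjusted p = 0.000844), with no overlap, a pattern that 1.31% of all genes showed. Mrpl30 had 0.32 to 1.14 (median 0.73) in SuHx and 1.42 to 2.08 (median 1.48) in Hypoxia ventricles, a 1.80-fold lower level (limma adjusted p = 0.00255), again with no overlap.

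Mrpl14, a large subunit protein with a bacterial homologue, had 0.53 to 1.23 (median 0.89) in SuHx and 1.61 to 1.91 (median 1.77) in Hypoxia ventricles. The 1.86-fold lower level had a limma adjusted p of 0.00307 and the groups did not overlap. The calls of Mrps18c, Mrpl30 and Mrpl14 held in all 14 alternative settings and all 12 omissions of an animal that were run. Mrpl48 (1.70-fold), Mrps24 (1.58-fold) and Mrpl53 (1.48-fold) were lower with overlapping groups, at limma adjusted p-values between 0.0104 and 0.0196. Mrpl48 and Mrpl53 are known only from mitochondrial ribosomes, without a bacterial counterpart, and Mrps24 is the mitochondrial form of S3.

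The ribosome genes that were higher in SuHx than in Hypoxia ventricles were Mrpl2 and Mrps27. Mrpl2 had -0.32 to 0.37 (median 0.14) in SuHx and -6.50 to -0.51 (median -2.71) in Hypoxia ventricles, with no overlap (7.49-fold higher, limma adjusted p = 0.00297), a separation that 5.99% of all genes showed in that direction. Mrps27 averaged -0.45 ± 0.56 in SuHx and -2.24 ± 1.48 in Hypoxia ventricles (SD, n = 6 each; limma adjusted p = 0.0479). That call held in 2 of 13 alternative settings, and 9 of 12 omissions ended it, all but those of Hypoxia animals 2 and 3 and SuHx animal 6, with adjusted p-values up to 0.107. The widest uncalled ribosome differences were those of Mrps15 (-0.95, limma adjusted p = 0.242) and Mrps5 (0.92, adjusted p = 0.228).

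Tomm7, a small subunit of the TOM channel, was the import gene called. It lay between 0.03 and 0.61 (median 0.39) in SuHx and between 0.79 and 1.18 (median 1.02) in Hypoxia ventricles, without overlap. It was 1.54-fold lower (limma adjusted p = 0.0207), and omitting SuHx animal 4 ended the call (adjusted p = 0.0511). No small Tim chaperone was called. Timm13 differed by -0.42 (adjusted p = 0.0657) with groups that did not overlap, Timm9 by -0.37 (adjusted p = 0.29) and Timm8b by -0.75 (adjusted p = 0.133). The widest uncalled differences with an import symbol were those of Timmdc1 (2.08, adjusted p = 0.0678) and Tomm34 (1.94, adjusted p = 0.312, with 4 SuHx and 5 Hypoxia animals).

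Timm8b rests on 3 probes that differed. The 2 probes with a value on all 40 arrays were lower in SuHx than in Hypoxia ventricles, by -0.82 (limma adjusted p = 0.00718) and -1.11 (adjusted p = 0.00611), when probes were tested one by one. The third had a value on 25 arrays and differed by -0.10 (adjusted p = 0.952). Timm10, a partner of Timm9, differed likewise: its complete probe differed by -0.53 (adjusted p = 0.0536) and its probe with values on 24 arrays by 1.15 (adjusted p = 0.495). Centring the animals raised the counts to 14 lower and 1 higher for the ribosome and 2 lower for import, adding Timm13, and quantile normalisation gave 13 lower and 1 higher for the ribosome and 4 lower for import. Calls over all genes shifted the same way with the scaling, with 954 higher and 175 lower as deposited (84.5% higher), 505 higher and 371 lower after centring (57.6% higher), and 548 higher and 556 lower after quantile normalisation (49.6% higher).

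**Figure D3:**
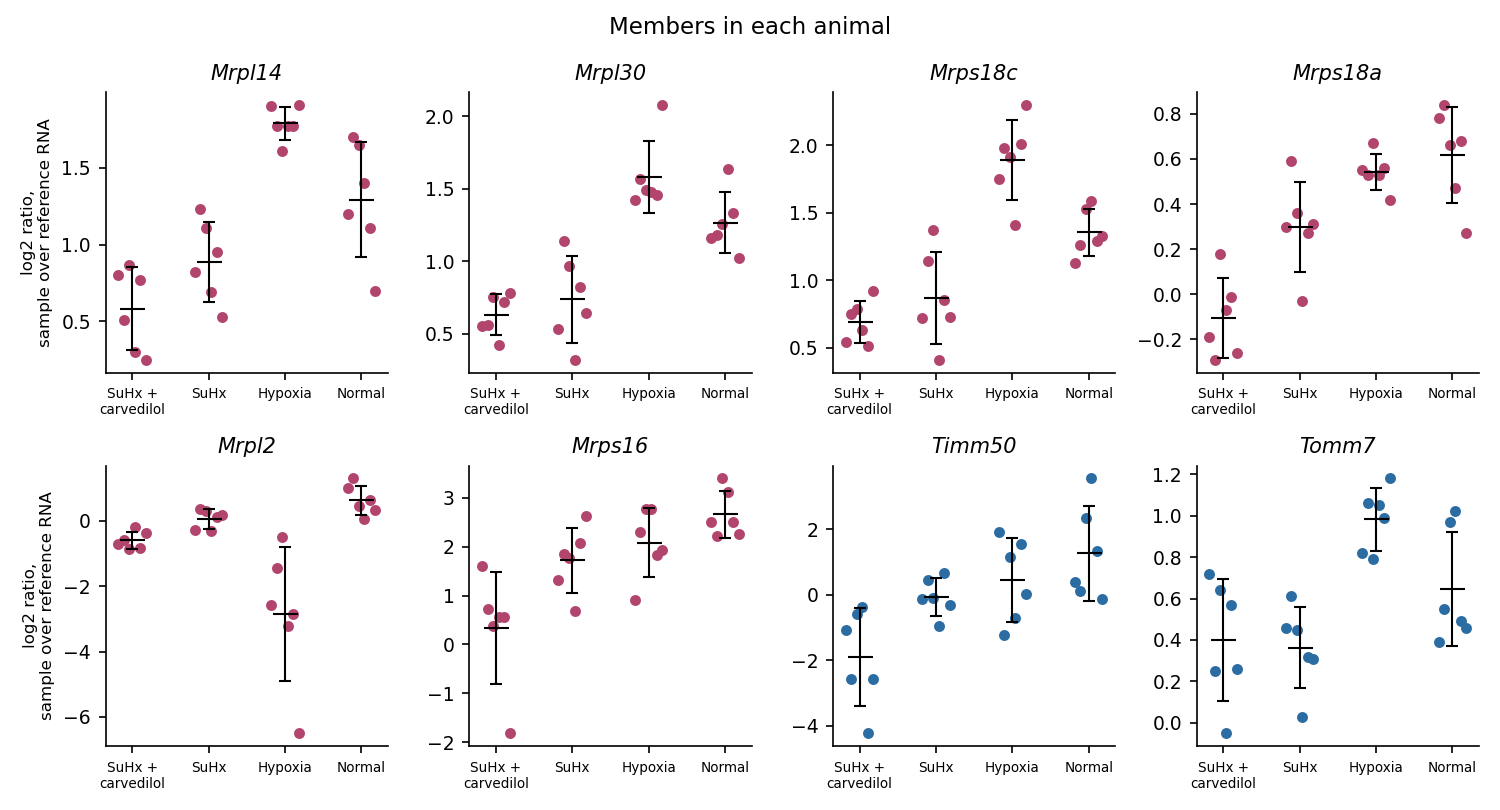
Log2 ratio of sample over reference RNA (y axis, own scale for each gene) in each animal of the 4 groups, with mean and SD. In Mrpl14, Mrpl30, Mrps18c and Tomm7 the SuHx points lie below all Hypoxia points, in Mrpl2 the Hypoxia mean is lowest, and in Mrps18a, Mrps16 and Timm50 the points of SuHx with carvedilol lie below all Normal points.

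Macrophage markers were higher in the same comparison and are given beside it: 3 of the 6 tested markers, C1qa, C1qc and Mrc1, were higher in SuHx than in Hypoxia ventricles. The mean level of the list ran between 2.28 and 3.27 in SuHx animals, against 0.94 to 1.80 in Hypoxia animals. Col1a2, of the 6 fibroblast markers, and Ryr2, of the 12 cardiomyocyte markers, were higher as well. Of those lists 4 and 11 markers changed above 0, as did 6332 of all 9775 tested genes. The part of any such shift in the changes of the ribosome genes was not tested. In tissue RNA, fewer cells of a type and less RNA per cell cannot be told apart.

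Carvedilol treatment of SuHx rats was not followed by a called change in any member against SuHx rats without it. No ribosome and no import gene was called by limma, where 0.921% of all genes were, 0.614% lower and 0.307% higher. At an unadjusted p under 0.05 there were 11 ribosome and 2 import genes, all lower with carvedilol, against 16.7% of all genes. The groups separated without overlap for 1 ribosome gene, Mrps11, lower with carvedilol, and for 0 import genes, where 2.15% of all genes did so lower and 1.40% higher. The medians were -0.29 for the ribosome, with 59 of 67 genes below 0, and -0.37 for import, with 17 of 20 below 0, beside -0.20 and 6291 of 9775 for all genes. The widest changes were those of Timm50 (-1.83 ± 0.69, limma adjusted p = 0.185), Mrps16 (-1.38 ± 0.44, adjusted p = 0.125) and Mrpl3 (-1.37 ± 0.50, adjusted p = 0.174). Among import symbols Tomm34 came next to Timm50 (-0.79, adjusted p = 0.776, with 4 SuHx animals). Cardiomyocyte markers gave 3 of 12 higher with carvedilol, Actc1, Tnni3 and Tnnt2, with list means of 5.07 to 6.42 with carvedilol and 4.36 to 5.31 without it, and their part in these values was not tested.

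With the ratios as deposited, SuHx ventricles with carvedilol against Normal ventricles gave the most called members of the 5 comparisons, an order that did not hold after centring or quantile normalisation, where SuHx against Hypoxia and Hypoxia against Normal gave more. Of 67 ribosome genes, 15 were lower and 0 higher in SuHx ventricles with carvedilol, and of 20 import genes 5 were lower and 0 higher. Over all genes 10.9% were called, 8.64% lower and 2.24% higher. The median change was -0.55 for the ribosome, with 61 genes below 0, and -0.49 for import, with 18 below 0. For all genes it was -0.32, with 6770 of 9775 below 0. The groups did not overlap for 19 ribosome and 4 import genes, all lower with carvedilol, where 7.67% of all genes showed that and 2.15% the opposite. An unadjusted p under 0.05 was reached by 32 ribosome and 6 import genes, all lower, against 26.5% of all genes.

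The median over ribosome genes separated SuHx animals with carvedilol from Normal animals, and so did the median over all tested genes. The median over ribosome genes of an animal's difference from the Normal mean lay between -0.78 and -0.42 in the 6 SuHx animals with carvedilol and between -0.24 and 0.22 in Normal animals. The SuHx animals spanned -0.63 to 0.13 and the Hypoxia animals -0.33 to 0.06. The same median over all tested genes lay between -0.30 and -0.15 with carvedilol and between -0.04 and 0.10 in Normal animals. For import genes the animals with carvedilol spanned -0.96 to -0.17 and overlapped the Normal range of -0.28 to 0.29.

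**Figure D4:**
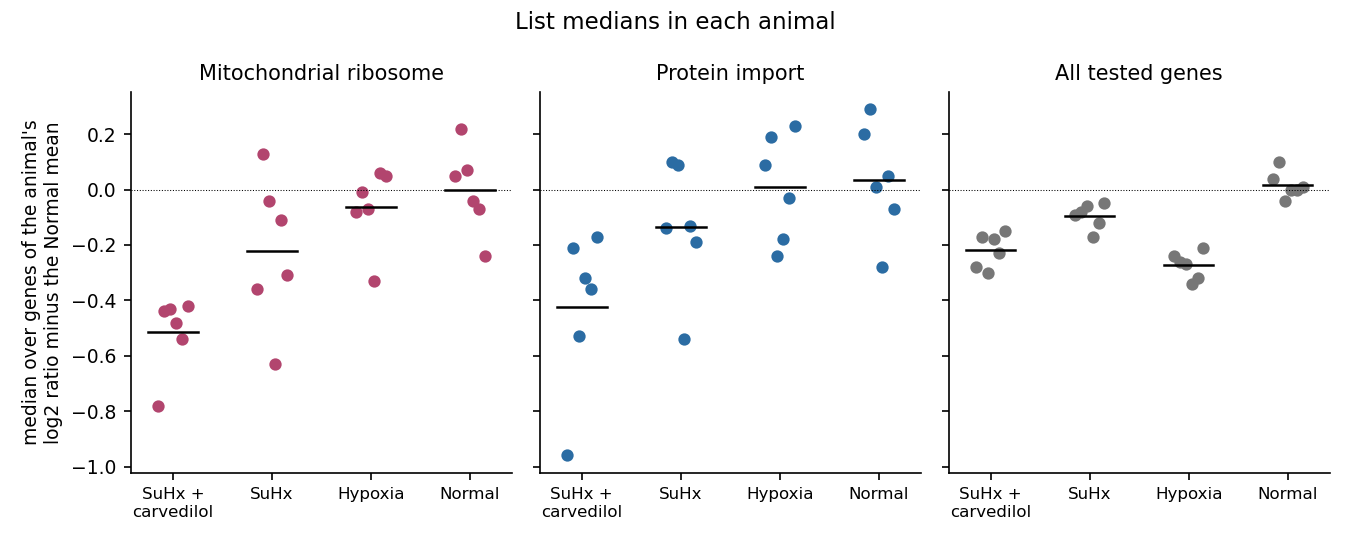
Median over the genes of a list of each animal's log2 ratio minus the Normal mean (y axis), by group (x axis), for ribosome genes, import genes and all tested genes; black bars are group means. Ribosome medians of SuHx animals with carvedilol lie at or below -0.42, under every Normal animal. Their medians over all tested genes also lie under those of every Normal animal.

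In the large subunit 9 of 42 tested genes were lower. Mrpl51, a mitochondria-specific protein, had ratios between -0.65 and 0.62 (median 0.43) with carvedilol and between 1.06 and 1.89 (median 1.43) in Normal ventricles. It was 2.37-fold lower (limma adjusted p = 0.00295) with no overlap, and kept its call in all 12 alternative settings and 12 omissions that were run.

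Mrpl27, the homologue of a bacterial protein at the peptidyl transferase centre, averaged 0.08 ± 0.58 with carvedilol and 1.45 ± 0.44 in Normal ventricles (SD, n = 6 each). It was 2.58-fold lower (limma adjusted p = 0.00309), but its probes differed by -2.21 (adjusted p = 0.00474) and -0.52 (adjusted p = 0.0566). Mrpl19 averaged -0.02 ± 0.21 with carvedilol and 1.07 ± 0.19 in Normal ventricles (SD, n = 6 each), a 2.12-fold lower level (limma adjusted p = 0.0032). That call held in 11 of 13 alternative settings, and a minimum of 2 animals per group, which brings in further probes, gave -0.56 (adjusted p = 0.478). Mrpl23, whose bacterial homologue sits at the exit of the peptide tunnel, was 1.53-fold lower with a mean of -0.12 ± 0.14 with carvedilol and 0.50 ± 0.28 in Normal ventricles (limma adjusted p = 0.0152).

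The other large subunit calls fell on Mrpl14, Mrpl30, Mrpl40, Mrpl44 and Mrpl58, between 1.55-fold and 3.42-fold lower. Mrpl58 is a peptidyl-tRNA hydrolase built into the ribosome that releases stalled chains. For Mrpl40, omitting SuHx-carvedilol animal 5 or any of Normal animals 1, 2, 3, 5 and 6 ended the call (adjusted p up to 0.0786), and SuHx-carvedilol animal 1 stood at -2.99, with the others between 0.48 and 1.47. Without that animal the difference was -1.09 and still called, and the call held in 5 of 13 alternative settings, over which the difference ran between -2.74 and -0.85. For Mrpl44, omitting any of Normal animals 2, 3 and 4 or SuHx-carvedilol animal 2 did so (adjusted p up to 0.0687), and for Mrpl58 omitting Normal animal 3 (adjusted p = 0.0575). Their calls held in 9 and 10 of 13 alternative settings. Mrpl12, which also binds the mitochondrial RNA polymerase, differed by -0.70 without a call (adjusted p = 0.122). The widest uncalled ribosome differences were those of Mrpl2 (-1.22, limma adjusted p = 0.193) and Mrpl20 (-1.16, adjusted p = 0.0767).

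Of the genes with small subunit symbols 6 of 25 were lower, among them Mrps18a and Mrps30, whose human proteins sit in the large subunit. Mrps16 had ratios between -1.82 and 1.60 (median 0.57) with carvedilol and between 2.22 and 3.40 (median 2.50) in Normal ventricles. It was 5.02-fold lower without overlap (limma adjusted p = 0.0019), and both of its probes were lower, by -2.13 and -2.60. Both probes were annotated with the same transcript record outside RefSeq, so they are not independent of each other. They had values on 37 and 32 arrays. Mrps16 kept its call in all 12 alternative settings and 12 omissions that were run.

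Mrps18a had ratios between -0.29 and 0.18 (median -0.13) with carvedilol and between 0.27 and 0.84 (median 0.67) in Normal ventricles. The change was small and tight, 1.65-fold lower without overlap (limma adjusted p = 0.00307), and its call was kept in all 13 alternative settings and 12 omissions that were run. Mrps34, a mitochondria-specific protein, averaged 0.72 ± 0.16 with carvedilol and 1.52 ± 0.30 in Normal ventricles (SD, n = 6 each) and was 1.73-fold lower (limma adjusted p = 0.0142). Mrps18c, Mrps30 and Mrps24 were 1.59-fold, 1.64-fold and 1.43-fold lower. For Mrps24, 10 of 12 omissions ended the call, all but those of SuHx-carvedilol animals 3 and 5 (adjusted p up to 0.0893). For Mrps30, omitting any of Normal animals 1, 2 and 5 or SuHx-carvedilol animal 1 ended it (adjusted p up to 0.0583). Mrps12, a protein of the decoding centre, differed by -0.17 (adjusted p = 0.516).

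Of the import genes, the calls fell on the inner membrane and intermembrane space, and none of the 5 tested TOM subunits was called. All 5 TOM subunits changed below 0, with a median of -0.25, and 8.64% of all genes were called lower. So few genes cannot show a difference between compartments. Timm50, the receptor of the TIM23 complex that takes over presequences, had ratios between -4.23 and -0.36 (median -1.81) with carvedilol and between -0.13 and 3.56 (median 0.86) in Normal ventricles. The groups did not overlap although each spread over more than 3 log2 units, and the level was 8.95-fold lower (limma adjusted p = 0.00518). It was measured by a single probe with values on 38 arrays, annotated with a transcript record outside RefSeq. Timm21, another TIM23 subunit, was 1.65-fold lower, at 2.12 to 2.46 (median 2.40) with carvedilol and 2.88 to 3.39 (median 3.07) in Normal ventricles (limma adjusted p = 0.019). Omitting Normal animal 2 ended this call (adjusted p = 0.0516).

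Timm10b, of the TIM22 complex, had -0.17 to 0.02 (median -0.05) with carvedilol and 0.75 to 1.19 (median 0.92) in Normal ventricles. The groups were far apart, yet the call (1.99-fold lower, limma adjusted p = 0.0377) was lost in all 12 omissions, at adjusted p-values up to 0.0803. The spread in Hypoxia animals, with an SD of 0.96, enters the pooled error of this gene.

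The small Tim chaperones Timm13 (1.42-fold, limma adjusted p = 0.0283) and Timm8b (2.05-fold, adjusted p = 0.0395) were lower. For Timm13, omitting any of Normal animals 1 to 4 or SuHx-carvedilol animal 4 ended the call (adjusted p up to 0.064). For Timm8b, omitting any of Normal animals 2 to 5 or SuHx-carvedilol animals 1 and 3 did (adjusted p up to 0.0991). The call of Timm8b came from its sparse probe, which differed by -2.95 (adjusted p = 0.0188), while the complete probes differed by -0.26 and -0.55 (adjusted p = 0.421 and 0.172), and the call held in 5 of 13 alternative settings. Timm23, the channel itself, differed by -0.51 (adjusted p = 0.201), Timm17a by -0.51 (adjusted p = 0.246) and Timm17b by 0.28 (adjusted p = 0.639). The widest uncalled differences with an import symbol were those of Timm44 (-1.45, limma adjusted p = 0.16, with 5 SuHx-carvedilol animals) and Timmdc1 (-0.98, adjusted p = 0.419). Omitting an animal left between 1 and 4 import calls, the lowest number without Normal animal 2.

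Scaling set the size of this difference but not its direction. After centring on the all-gene median, 5 ribosome genes (Mrpl19, Mrpl27, Mrpl51, Mrps16 and Mrps18a) and 1 import gene (Timm50) stayed lower and 0 were higher. The ribosome median was then -0.34, beside -0.12 for all genes. Quantile normalisation gave 6 and 1 lower, and scaling to equal spread 23 and 5 lower. Of all 9775 genes, 401 were lower and 342 higher after centring, and 406 lower and 498 higher after quantile normalisation. Equal spread gave 1095 lower and 211 higher. The single import call after centring or quantile normalisation is too few to set beside these counts. Over all genes, 20.6% of calls were higher as deposited, 46.0% after centring and 55.1% after quantile normalisation.

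**Figure D5:**
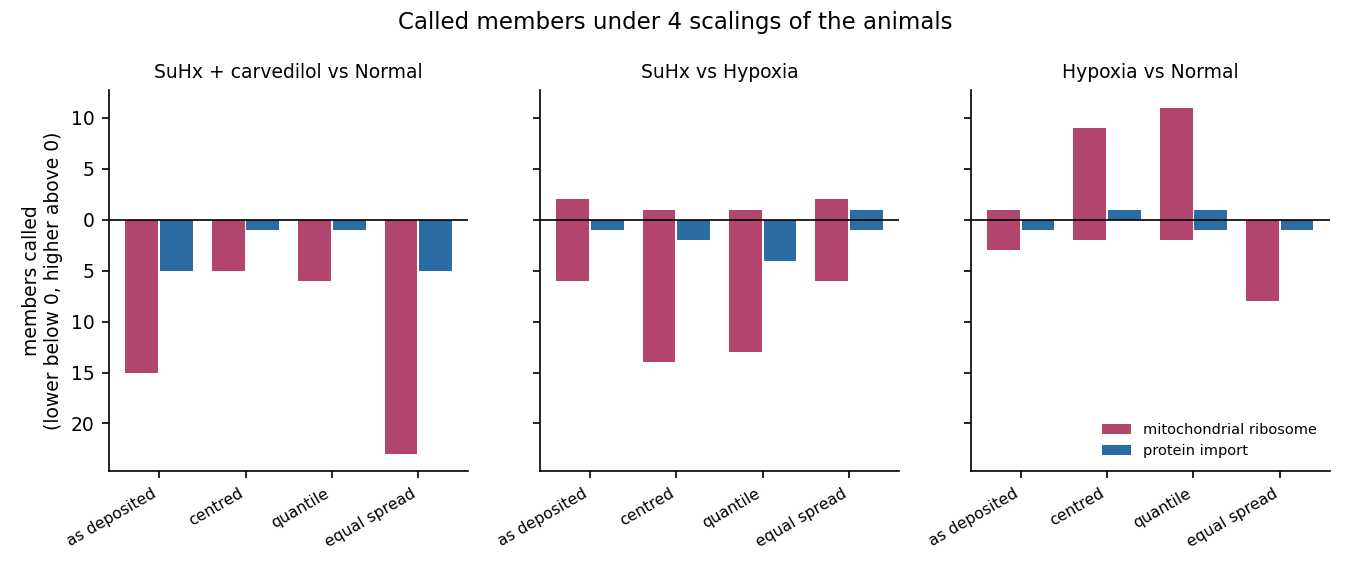
Number of ribosome and import genes called higher (above 0) and lower (below 0) in 3 comparisons, with ratios as deposited and after centring, quantile normalisation or scaling to equal spread. Calls in SuHx with carvedilol against Normal are lower under each of these, whereas in Hypoxia against Normal the ribosome calls are mostly higher after centring and quantile normalisation and mostly lower under the other 2.

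Cell type markers moved in this comparison too. Of the 12 cardiomyocyte markers, 8 were higher in SuHx ventricles with carvedilol than in Normal ventricles, among them Tnnt2 (8.10-fold) and Tnni3 (8.34-fold), genes of the troponin complex. The mean level of the list ran between 5.07 and 6.42 with carvedilol, against 3.98 to 5.06 in Normal animals. Macrophage markers gave 2 of 6 higher, with list means of 2.29 to 3.16 with carvedilol and 1.51 to 2.11 in Normal animals. Vwf of the 5 endothelial markers was higher, but 3 of that list changed below 0 and 2 above, with a median of -0.07. Alas2 of the 3 erythroid markers was higher, with 2 of that list above 0 and 1 below and a median of 0.92. None of the 6 fibroblast and none of the 2 tested smooth muscle markers was called, and the fibroblast list averaged 0.11 with carvedilol and 0.14 in Normal animals. The part of these shifts, and of the differing number of probes with a value, in the lower ratios of ribosome and import genes was not tested.

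Other genes of mitochondrial translation gave 6 lower of 36 tested in SuHx ventricles with carvedilol against Normal, and 0 higher. They were Chchd1 (1.80-fold), a small subunit protein that the symbol rule does not take, the synthetases Cars2, Sars2 and Yars2 (1.80- to 2.13-fold), the release factor Mtrf1l (2.06-fold) and the transcription factor Tfb2m (2.37-fold). These made up 16.7% of the list, beside 8.64% of all genes. In Hypoxia against Normal 4 were lower, 11.1% of the list beside 11.5% of all genes, namely the mitochondrial RNA polymerase Polrmt, the elongation factor Tufm, the helicase Ddx28 and Sars2. In SuHx against Hypoxia Chchd1 and Cars2 were lower and Ddx28 higher, and in SuHx against Normal only Cars2 was called, lower. No member of that list was called between SuHx with and without carvedilol, where the list median was -0.40.

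Of 16 tested import partners, 5 were lower in SuHx ventricles with carvedilol against Normal, with limma adjusted p-values between 0.0053 and 0.0445. That was 31.2% of the list, beside 8.64% of all genes. They were Samm50 (2.28-fold), which inserts barrel proteins into the outer membrane, Pam16 (3.77-fold) of the import motor, Chchd4 (1.71-fold), the import oxidase of the intermembrane space, Hspe1 (1.58-fold), the cochaperonin, and the peptidase Mipep (1.65-fold). Chchd4 and the chaperonin Hspd1 were 2.21-fold and 2.45-fold lower in Hypoxia than in Normal ventricles, and 1.96-fold and 2.22-fold higher in SuHx than in Hypoxia ventricles. In the last comparison Pam16 was 5.37-fold lower. The share lower in Hypoxia was 12.5% of the list, near the 11.5% of all genes. The share higher in SuHx than in Hypoxia was 12.5%, near the 9.76% of all genes.

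In SuHx with carvedilol against Normal, 22.4% of the mitochondrial ribosome genes were lower, with a median of -0.55. Among genes with cytosolic ribosomal protein symbols 12.9% were lower (9 of 70, with 0 higher), with a median of -0.26. Genes with respiratory chain and ATP synthase symbols gave 15 lower (17.4%) and 3 higher (3.5%) of 86, with a median of -0.49. The cytosolic and respiratory lists were taken by symbol and hold genes that are not subunits. Rps19bp1 and Ndufaf5, both among these calls, are examples. Over all genes 8.64% were lower and 2.24% higher, with a median of -0.32. In SuHx against Hypoxia the cytosolic list gave 2 lower (2.9%) and 1 higher (1.4%) with a median of -0.03. The respiratory list gave 5 lower (5.8%) and 2 higher (2.3%) with a median of -0.13, and Uqcc2, which is no subunit, was among its calls. Over all genes 1.79% were lower and 9.76% higher there, with a median of 0.26. The difference between the lists was not tested.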

How the data were processed

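RNA of 24 right ventricles was hybridised on 40 two-colour Agilent arrays, 1 to 5 per animal, against RNA pooled from 14 cell lines. Arrays were scanned and read with GenePix Pro 5.0, per the series' design text. The values used are the deposited log2 ratios of sample over reference, normalised by lowess within each array by the authors, per the series' design text; 34.9% of cells are empty, and channel intensities were not analysed here. A second deposited table carries the same values under a log10 heading, and the range of -13.6 to 14.0 was read as log2.

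Spots of a probe and arrays of an animal were averaged. Probes with values in at least 4 of 6 animals of every group were kept, centred on their own mean and averaged per gene with the mean added back, which left 13454 probes of 9775 genes. limma 3.58.1 (R 4.3.3) fitted the 4 groups without covariates (20 residual degrees of freedom, with 2.44 prior), with Benjamini-Hochberg adjustment over all genes and calls at 0.05. A probe's gene is that of the platform annotation. Named genes are the called members, the widest uncalled changes of each part in each comparison, and a panel of subunits. Mrps11, Mrpl46, Timm10b in SuHx against Normal, and genes called only after rescaling fall outside that rule and were chosen after their values were seen. The fit was tested on simulated data. Precision is limited by having 6 animals a group. Members and gene lists were chosen with earlier results of these data known. Promoters came from the RefSeq table (GRCr8). Alternatives covered scaling, probe choice, filters, arrays and omission of animals.

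Animals of different groups share replicate numbers. Their deviations correlated between -0.26 and 0.18, so the numbers were not taken as pairs.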

Additional observations from a re-analysis of the deposited data

Results flagged for a closer look

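In 17 of 192 groups of values, over 48 named genes, the highest or lowest animal stood apart from the other animals of its group by Dixon's criterion, which chance meets in about 1 of 20 groups. Among SuHx animals with carvedilol, Mrpl20 was -1.76 in animal 2 (others 0.12 to 0.95), Mrpl40 was -2.99 in animal 1 (others 0.48 to 1.47) and Mrpl51 was -0.65 in animal 3 (others 0.26 to 0.62). Mrps15 was -1.04 in animal 5 (others 0.55 to 1.49), Mrps16 was -1.82 and Mrps28 0.16 in animal 6 (others 0.38 to 1.60 and 0.84 to 1.14), and Mrps5 was -1.69 and Timm17a 0.39 in animal 1 (others -0.38 to 0.29 and 1.60 to 1.93). All of these were the lowest value of the group, and 3 of the 8 lay in animal 1.

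Among SuHx animals, Mrpl20 was -0.52 and Timm10 4.26 in animal 3 (others 0.71 to 1.15 and 1.31 to 2.24). Mrps12 was 0.17 in animal 4 (others 0.50 to 0.64), and Mrps27 was -1.57 in animal 6 (others -0.41 to -0.11).

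Among Hypoxia animals, Mrpl30 was 2.08 in animal 6 (others 1.42 to 1.57), Timmdc1 was -6.19 in animal 6 (others -1.90 to 0.25) and Timm8a1 was -0.57 in animal 4 (others 0.12 to 0.43). Among Normal animals, Mrpl12 was 0.30 in animal 6 (others 1.80 to 2.50) and Timm10 was 3.28 in animal 5 (others 1.96 to 2.44).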

How the results depend on the processing

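In SuHx with carvedilol against Normal, the 15 ribosome calls became 5 after centring, 6 after quantile normalisation, 23 at equal spread and 9 with the first array of each animal, all lower. The 5 import calls became 1 after centring, quantile normalisation, a minimum of 2 animals per group or with first arrays, and 3 with probes valued on every array or with the replicate block. In SuHx with carvedilol against SuHx, equal spread gave 1 import call. In SuHx against Hypoxia, the 8 ribosome calls became 15 (centred), 14 (quantile, every-array probes, and all arrays with the animal as a random block), and 4 (first arrays, and a fit of only those groups). The 1 import call there became 2 (centred, equal spread, and without the 2 arrays with the fewest values), 3 (each probe on its own, highest-ratio probe, random block), 4 (quantile), 5 (every-array probes) and 0 (a minimum of 2 animals, a fit of only those groups, and without the Hypoxia animals from a separate range of label numbers). In SuHx against Normal, the 0 ribosome calls became 2 (equal spread), 4 (every-array probes) and 1 (random block). In Hypoxia against Normal, the 4 ribosome calls became 11 (centred) and 13 (quantile), most of them higher, 8 (equal spread), 7 (every-array probes) and 9 (random block). The 1 import call there became 1 higher (centred, first arrays), 2 (quantile, each probe on its own, without the 2 arrays with the fewest values), 3 higher (every-array probes) and 0 (a minimum of 2 animals, random block, only those groups). Timm10 turned to 0.52 (every-array probes) and 0.70 (first arrays) in Hypoxia against Normal and to -0.53 (every-array probes) in SuHx against Hypoxia, settings that leave out its sparse probe or keep 1 array per animal. The cause of the shifts was not tested.

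Omitting 1 animal at a time gave 11 to 15 ribosome and 1 to 4 import calls in SuHx with carvedilol against Normal, the fewest without Normal animal 2. It gave 7 to 10 and 0 to 3 in SuHx against Hypoxia (0 without SuHx animal 4, 2 without Hypoxia animal 1 or 4, 3 without Hypoxia animal 3), and 3 to 5 and 0 to 2 in Hypoxia against Normal (0 without Normal animal 1, 2, 3, 5 or 6, 2 without Hypoxia animal 1 or Normal animal 4). In both other comparisons it gave 0 throughout. With the replicate number as a block, which matched its own number best in 0 to 4 of 6 animals, ribosome calls were 14, 8 and 3 and import calls 3, 1 and 1 in these 3 comparisons, and 0 in the others. Mrps18c was not called in Hypoxia against Normal with this block.

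Over all genes, calls in SuHx with carvedilol against Normal numbered 1064, and 439 with first arrays. In SuHx with carvedilol against SuHx they numbered 90, with 1 (first arrays), 11 (only those groups), 41 (a minimum of 2 animals), 45 (replicate block), 152 (each probe), 194 (without the 2 arrays) and 331 (random block). In SuHx against Hypoxia they numbered 1129, with 752 (a minimum of 2 animals) and 596 (only those groups). In SuHx against Normal they numbered 91, with between 14 (first arrays) and 430 (only those groups). In Hypoxia against Normal they numbered 1206, with 661 (centred), 673 (only those groups), 790 (a minimum of 2 animals) and 797 (every-array probes, of 3232 genes). Averaging probes without centring them was chosen after seeing the data and moved no count of members by over 1.5 times. Signal over background was not analysed here. Probes with a transcript record outside RefSeq had a value on a median of 25 arrays, against 40 for RefSeq probes.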

Other observations

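Of the 25 members with several tested probes, the probes differed in sign for 5 in SuHx with carvedilol against Normal, 7 in SuHx with carvedilol against SuHx, 10 in SuHx against Hypoxia, 8 in SuHx against Normal and 9 in Hypoxia against Normal. Of the 27 members called in at least 1 comparison, 6 were called in 2 or more: Mrps18c in 3, and Mrpl14, Mrpl2, Mrpl30, Mrps24 and Mrps27 in 2. The comparisons share animals. The other 60 tested members were called in none.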
